A study of Mus musculus with 6 samples.

Results

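Exons that follow a long intron and precede a short one were taken from the skipped exon table of CD4+ T cells with and without the spliceosomal protein CD2BP2/U5-52K. An event was a member when its exon was 31 to under 400 bases long, the intron on the 5′ side of the transcript was 10000 bases or longer and the intron on the 3′ side was shorter than 1000 bases. The rule uses lengths only and no measured value. It took 628 of 46394 skipped exon events, which hold 538 distinct exons of 465 genes. Of these members, 500 had a mean of at least 20 reads in Control as well as in cKO and were tested, and 128 were not. The 500 tested members hold 443 exons of 383 genes, and 43 of these exons stand in more than 1 tested member because they are joined to several upstream exons.

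CD4+ T cells were sorted from pooled spleen and peripheral lymph nodes of male mice, and 3 Control libraries were compared with 3 cKO libraries to ask which exons change when CD2BP2/U5-52K is lost. The cKO mice (KO_7.8, KO_9.10 and KO_11.12) were U5-52Kf/f CD4-Cretg. Of the Control mice, CTRL_1.2 and CTRL_3.4 were U5-52Kwt/f CD4-Cretg, and CTRL_5.6 was U5-52Kf/f CD4-Cre-, so that the Cre transgene and the floxed allele differ within Control. The CD4-Cre transgene deletes the floxed gene in developing T cells, and libraries were made from total RNA with a low-input kit. The Control libraries held 56995121 to 75606222 reads in genes and the cKO libraries 69981159 to 82286366. Cd2bp2, the deleted gene, had normalized counts of 2624, 2602 and 2612 in Control and of 884, 874 and 738 in cKO (log2 fold change -1.65, adjusted p = 0.00137 from limma). The 8 measured T cell markers of 9 listed, among them Cd4 and Cd3e, summed to between 439974 and 507887 in Control and between 418936 and 452673 in cKO. The sum of 10 myeloid markers was 30305 in KO_7.8, between 5756 and 7277 in the other cKO libraries and between 3644 and 7152 in Control. Markers of CD8 and cytotoxic cells (6 of 6) summed to 14303 to 18807 in Control and 25106 to 27127 in cKO, and B cell markers (8 of 8) to 9792 to 12755 and 4598 to 8553. Of 6 erythroid markers 5 were measured, with sums of 171 to 4080 and 331 to 3085. No measured marker was at 0 in every library. The splicing table lists 3 values per condition without library names, and no splicing value was tied to KO_7.8. The part of other cell types in the results was not tested. In bulk RNA, fewer cells of a type and less RNA per cell cannot be told apart.

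The spliceosome removes an intron by pairing a 5′ splice site with a 3′ splice site. Where an intron is short the pair can be recognised across the intron, and where it is long recognition usually works across the exon. The 3′ splice site of an exon behind a long intron is joined to a distant 5′ splice site, and where the next intron is short, the exon's own 5′ splice site is joined to a close 3′ splice site. CD2BP2 is an assembly factor of the U5 snRNP, which holds the exon ends during splicing. It leaves the particle before the spliceosome is active. First introns are often the longest of a gene, and exons that follow them often carry the start of the reading frame.

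Inclusion (Ψ) is the percentage of transcripts at an event that hold the exon, from inclusion reads and skipping reads each divided by the length of sequence that can give them. Differences are cKO minus Control in percentage points. An event was called at an FDR under 0.01 and a difference of at least 10 points, from a quasi-binomial model of inclusion against skipping reads fitted to all 39173 tested events. By this rule 4 of the 500 members were called, which is 0.8%, against 194 of all tested events (0.495%). Lower in cKO were 1 of the 500 members, against 159 of all 39173 tested events (0.406%). Higher were 3 of the 500, against 35 of all 39173 (0.0893%). The 4 calls lie in 3 genes, Nadk, Tnip1 and Ap2b1. The 2 Nadk exons share their start, the upstream exon and their skipping reads, so that they are not separate findings.

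Exon sequence is printed for the called exons that hold coding sequence, to show what is gained or lost when the exon is skipped. Sequences and positions are from GENCODE M21 on GRCm38. For Ap2b1, exon 15 of 22 of Ap2b1-201 (chr11:83364795-83364836, plus strand) is in capitals between the last 30 bases of the exon before it and the first 30 bases of the exon after it. For Tnip1, the line holds the 136 coding bases (chr11:54940711-54940846, minus strand) of exon 3 of 19 of Tnip1-203, with the annotated start codon in capitals. The Nadk exons lie in the 5′ untranslated region by annotation and are given by position only.
Ap2b1: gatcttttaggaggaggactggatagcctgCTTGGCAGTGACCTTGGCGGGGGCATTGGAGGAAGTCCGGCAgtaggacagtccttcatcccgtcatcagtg
Tnip1: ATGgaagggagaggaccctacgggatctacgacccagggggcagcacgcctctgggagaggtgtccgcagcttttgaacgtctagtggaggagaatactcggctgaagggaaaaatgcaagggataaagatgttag

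Nadk, the cytosolic NAD kinase that makes NADP from NAD, had a rarely used 5′ exon that was included more often in cKO. The exon begins 12748 bases after an annotated first exon, at chr4:155576728 on the plus strand, and is listed with 2 ends. The longer form, of 163 bases (to 155576890, exon 2 of Nadk-205), lies 102 bases before the next exon. Its inclusion was 5.87, 6.31 and 3.95% in Control and 19, 16.8 and 16.9% in cKO. All cKO values lay above all Control values by more than the range within either condition. Mean inclusion rose from 5.38% ± 1.25 to 17.6% ± 1.27 (SD, n = 3), a difference of 12.2 points (standard error 1.03, FDR = 1.32e-09). Behind these values stood 50, 84 and 25 inclusion reads in Control and 134, 169 and 173 in cKO, and 383, 596 and 290 skipping reads in Control against 272, 399 and 407 in cKO. The shorter form, of 55 bases (to 155576782), rose from 5.62% ± 1.89 to 17.4% ± 3.60 (SD, n = 3), by 11.8 points (standard error 2.35, FDR = 9e-07). Reads on the junction into the exon can count for both forms, so the 2 rises do not show which end was used more. The longer form kept its call when any single value was left out. The shorter form lost it in 1 of 6 cases, where the difference was 9.88 points.

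Another Nadk member joined the 55-base exon to another upstream exon 12558 bases away and had too few reads to be tested. The total level of Nadk did not pass the test between conditions, with normalized counts of 11319, 12524 and 11174 in Control and 14000, 11188 and 11874 in cKO (log2 fold change 0.08, standard error 0.11, adjusted p = 0.792 from limma). The groups overlapped in that total.

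Tnip1 encodes ABIN1, an adaptor that restrains NF-κB signalling together with A20. Its 172-base exon (chr11:54940711-54940882, minus strand) holds the start codon printed above and is listed with 4 upstream exons, so that 4 members share the exon and the reads inside it. With the upstream exon 15138 bases away, inclusion was 55.1, 65.6 and 60.7% in Control and 84.8, 76.5 and 72.4% in cKO. Every cKO value was higher than every Control value, and the mean rose from 60.5% ± 5.25 to 77.9% ± 6.32 (SD, n = 3), by 17.4 points (standard error 4.74, FDR = 0.003). Skipping reads of this pair were 101, 95 and 57 in Control and 29, 65 and 76 in cKO, and inclusion reads were 267, 390 and 190 against 348, 455 and 429.

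The other 3 Tnip1 members were not called. They are described because they share the called exon, a choice made after their values were seen. With the upstream exon 11467 bases away, inclusion was 93.7% ± 0.80 against 97.7% ± 1.48 in cKO (SD, n = 3), a difference of 4.07 points (FDR = 0.533), and the groups did not overlap. At 14965 bases the means were 94.8% and 94.2% (FDR = 0.758), and at 21950 bases they were 54.4% and 52.4% (FDR = 0.739), with overlapping values in both. The last pair had the most reads of the 4, and its skipping reads were 87, 148 and 60 in Control and 111, 196 and 174 in cKO. So the call on this exon rests on 1 of 4 upstream partners, and it was lost without the first Control value or without the first cKO value. Over the 6 cases that leave out 1 value the difference lay between 13.9 and 20.1 points, with FDR from 0.000822 to 0.103. Reads inside the exon count for all 4 members whatever the upstream exon, so the 4 inclusion values are not independent. The total level of Tnip1 was 13116 ± 1026 normalized counts against 13286 ± 630 in cKO (SD, n = 3, adjusted p = 0.946 from limma).

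**Figure D1:**
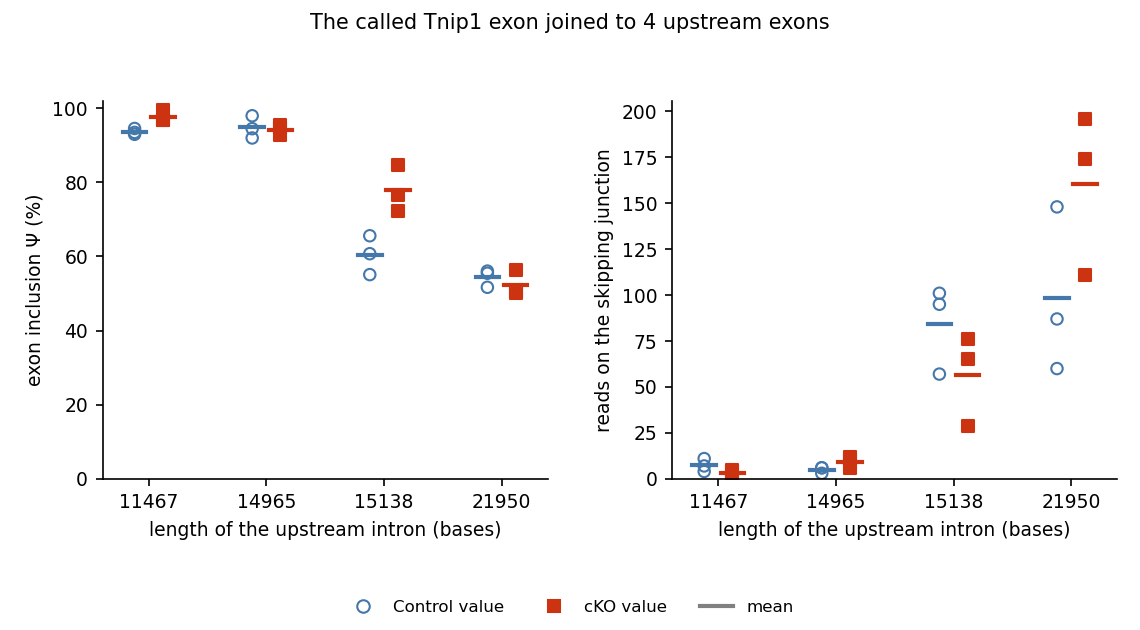
Inclusion in percent (left) and reads on the skipping junction (right) of the Tnip1 172-base exon, by the length in bases of the intron to each of 4 upstream exons. Open circles are the 3 Control values, filled squares the 3 cKO values and bars their means. At 15138 bases inclusion was higher in every cKO value, while at 14965 and 21950 bases the conditions overlapped.

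Ap2b1, the β2 subunit of the AP-2 adaptor that links cargo receptors to clathrin at the plasma membrane, was the called member with lower inclusion in cKO. Its 42-base exon lies 13623 bases after the exon before it and 810 bases ahead of the next. The 14 codons in capitals above are in frame, so that transcripts with and without the exon keep the same reading frame. Inclusion was 44.5, 37.7 and 35.6% in Control and 19.5, 26.1 and 26.2% in cKO. The conditions did not overlap, and the mean fell from 39.3% ± 4.62 to 23.9% ± 3.86 (SD, n = 3), a difference of -15.3 points (standard error 3.48, FDR = 0.00782). Inclusion reads were 118, 127 and 66 in Control and 48, 97 and 89 in cKO, against 115, 164 and 93 and 155, 214 and 196 skipping reads. This call stood near the threshold and was lost in 5 of the 6 fits that left out a value, all but the one without the Control value listed last, with differences between -17.1 and -12.7 points and FDR from 0.00606 to 0.141. A second Ap2b1 member, an 85-base exon behind an intron of 19920 bases, was included at 100, 100 and 100% in Control and at 100, 100 and 98.5% in cKO. The total level of Ap2b1 was 6100 ± 739 normalized counts against 6478 ± 648 in cKO (SD, n = 3, adjusted p = 0.791 from limma).

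A second method, limma on the logit of inclusion, called none of the 39173 events, members included. By that method 3372 events in all and 34 members had an unadjusted p under 0.05, against 3438 events (8.78%) and 35 members (7%) in the quasi-binomial fit.

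Several members with differences of that size were not called. Of the 500 tested, 18 differed by at least 10 points (3.6%, against 3.38% of all tested events), 11 lower and 7 higher in cKO. The 14 uncalled ones among them had a mean of 21.3 to 121 reads in Control, the called ones 228 to 476. The values of 36 members (7.2%) did not overlap between conditions, 23 lower and 13 higher, against 10.8% of all tested events.

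The further members named next were chosen for the largest differences among those without overlap, so their lack of overlap is no result. The upstream intron was not annotated for the Gprasp1, Snx19 and Ggt5 members or for the Fam49b pairs at 102527 and 64902 bases. Other annotated exons of the gene lay inside each of these introns. Fam49b, whose product binds Rac1 and limits actin remodelling, had an 83-base exon (chr15:63957585-63957667, minus strand) in 3 tested members. With an upstream intron of 102527 bases its inclusion was 100, 93.7 and 100% in Control and 58.6, 83.7 and 66.7% in cKO, a difference of -28.2 points (standard error 7.70, FDR = 0.208). Only 21.3 reads in Control and 30.7 in cKO lay behind that pair on average. With the intron of 64902 bases the values were 30, 17 and 34.5% in Control and 11.2, 12.5 and 10% in cKO, -15.9 points (standard error 5.29, FDR = 0.112). This member passed the threshold, with an FDR of 0.00652, when the spread was estimated over all tested events. With the intron of 13262 bases the same exon was included at 3.05 to 4.43% in Control and 2.87 to 4.46% in cKO. The 3 pairs share the reads inside the exon, and the differences between pairs were not tested. In Control, inclusion reads were 18, 23 and 22 at 102527 bases and 18, 24 and 23 at 64902 bases. Skipping reads there were 0, 1 and 0 against 27, 75 and 28. So the inclusion values of these 2 pairs differed mostly through their skipping reads. They do not measure how often the exon was joined to each upstream exon.

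Gprasp1, a sorting protein for G protein-coupled receptors, had a 5′ untranslated exon of 89 bases at 86.2, 89.1 and 100% in Control and 81.4, 53 and 67% in cKO (-24.6 points, standard error 9.22, FDR = 0.516). Snx19, a sorting nexin, had a 185-base coding exon at 100, 93.4 and 97% in Control and 73.1, 88.2 and 84.4% in cKO (-14.9 points, standard error 4.95, FDR = 0.356). Ythdf3, a reader of m6A in RNA, had a 33-base coding exon at 41.6, 41.9 and 45.8% in Control and 36, 29.9 and 38.6% in cKO (-8.22 points, standard error 2.91, FDR = 0.208). A second member with that exon, behind an intron of 19240 bases that was not annotated, was at 91.5% ± 6.09 and 80.9% ± 6.34 (SD, n = 3) with overlapping values.

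Among the members higher in cKO without a call, Ppp1r16a, a targeting subunit of protein phosphatase 1, had a 5′ untranslated exon of 167 bases at 13.2, 15 and 3.5% in Control and 25.8, 30.2 and 23.8% in cKO (16.1 points, standard error 4.04, FDR = 0.234). Ggt5, a γ-glutamyltransferase, had a 158-base coding exon at 52.5, 59.0 and 58.8% in Control and 74.3, 61.9 and 72.0% in cKO (12.6 points, FDR = 0.549). Atg7, the E1-like enzyme of autophagy, had a 5′ untranslated exon of 53 bases at 0, 0 and 6.87% in Control and 9.85, 8.44 and 12.9% in cKO (8.09 points, FDR = 0.44). None of the 3 passed the test.

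**Figure D2:**
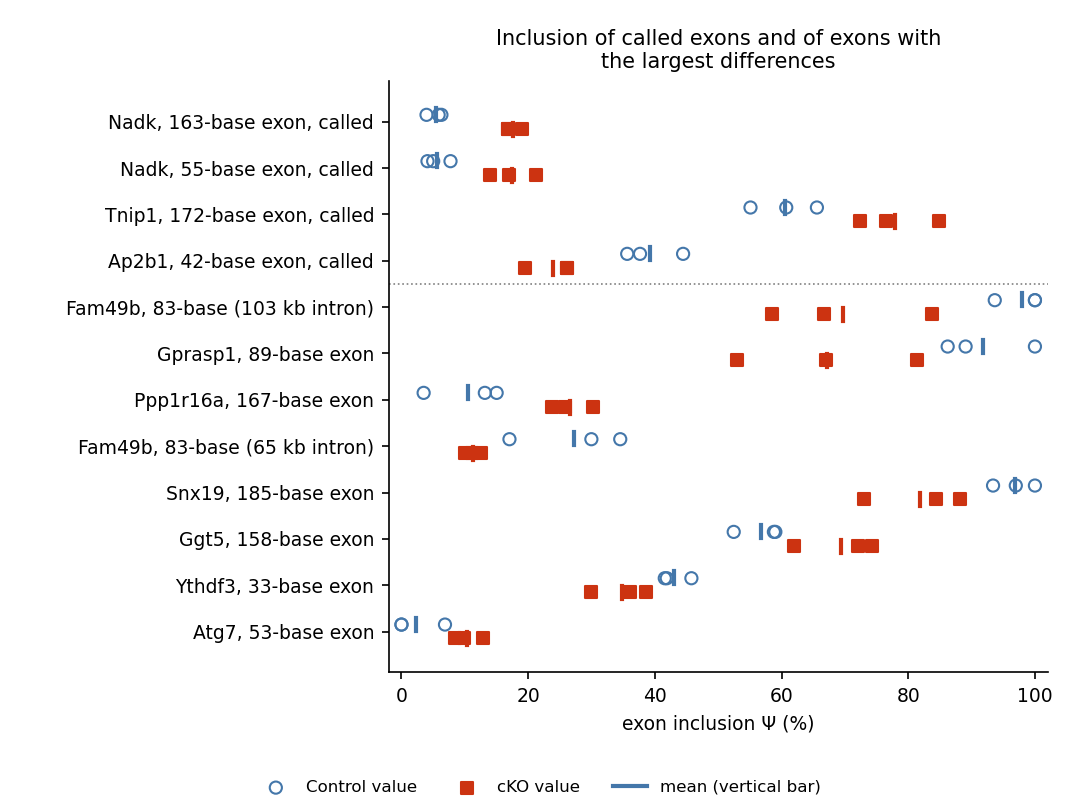
Inclusion in percent of the 4 called members (above the dotted line) and of the 8 further members with the largest differences among those whose conditions do not overlap. Open circles are the 3 Control values, filled squares the 3 cKO values and vertical bars the means. Both Nadk forms and the Tnip1 exon were higher in cKO and the Ap2b1 exon lower, by 11.8 to 17.4 points in size.

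Most members were included in nearly every transcript and moved little. Control inclusion was 95% or more in 370 tested members (74%), between 5 and under 95% in 82 (16.4%) and under 5% in 48 (9.6%). All 4 calls fell among the 82 of intermediate inclusion (4.88%, against 0.495% of all tested events). So did 16 of the 18 differences of at least 10 points (19.5% of the 82, against 3.38% of all tested events). Inclusion of 95% or more cannot rise by 10 points, and inclusion under 5% cannot fall by 10, so the threshold partly sets this split. The share of calls among all events of intermediate inclusion was not computed. In these 82, 45 values were lower and 37 higher in cKO. Of the 370 members of high inclusion 249 were lower and 121 higher, with a median difference of -0.14 points. Over all 500 members the median was -0.13 points, with 312 lower (62.4%) and 188 higher, and 306 (61.2%) differed by less than 1 point. Over all tested events the median was -0.18 points and 65.5% were lower.

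**Figure D3:**
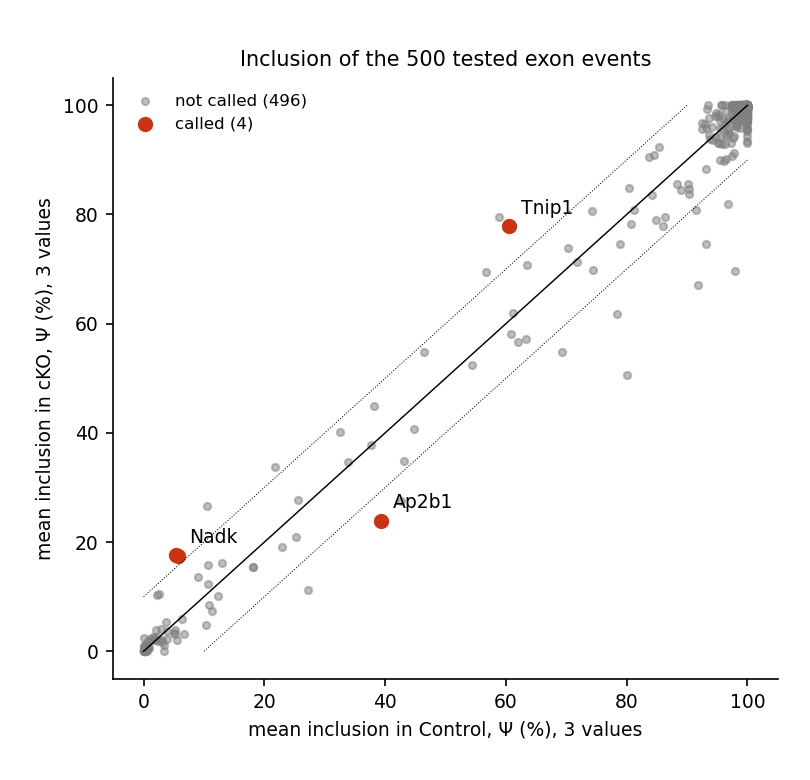
Mean inclusion in percent of the 500 tested members in Control (horizontal) and cKO (vertical), 3 values each. The solid line marks equal inclusion and the dotted lines a difference of 10 points. The 4 called members are labelled by gene, and most of the 496 others lie close to the line at high inclusion.

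Exons of the same length range with other intron neighbours gave the following values side by side, with no test of the differences between them. Where only the downstream intron was long, 3 of 362 tested events were called (0.829%), the median difference was -0.28 points, 65.7% were lower in cKO and 13.8% did not overlap. Between introns that were both long, 38 of 2788 were called (1.36%), all 38 lower in cKO. The median there was -0.63 points, 78.8% were lower and 17.8% did not overlap. Between introns that were both short, 23 of 6089 were called (0.378%), 13 lower and 10 higher, with a median of -0.08 points, 61.7% lower and 10.1% without overlap. The members' median, share lower and share without overlap lay nearer to those of exons between short introns than to those of exons between long ones. In 10% of tested members the difference was -3.01 points or lower, and the like limit was -5.97 points between long introns and -2.46 points between short ones.

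**Figure D4:**
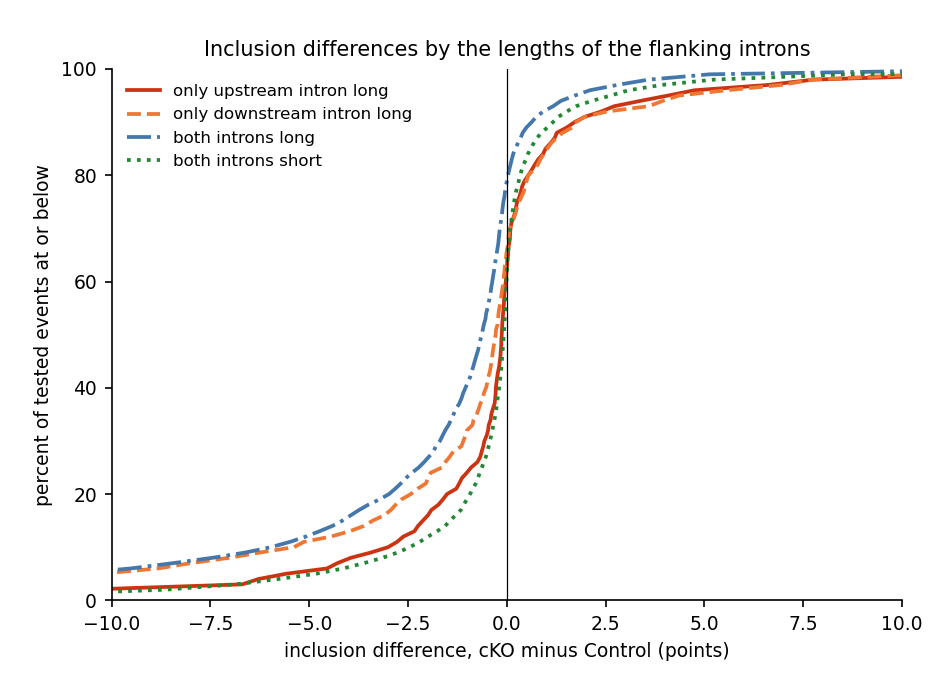
Percent of tested events (vertical) at or below each inclusion difference, cKO minus Control in points (horizontal, shown from -10 to 10), for 4 groups of exons by the lengths of their flanking introns. The line of exons with only the upstream intron long crosses 0 points at about the height of exons between short introns (62.4 and 61.7% lower in cKO), and the line of exons between long introns crosses at 78.8%.

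By length of the upstream intron, 337 tested members had 10000 to under 20000 bases, 145 had 20000 to under 50000 and 18 had 50000 or more. All 4 calls fell in the first class (1.19%, against 0.495% of all tested events), which holds most of the members, and the numbers at an unadjusted p under 0.05 were 26, 7 and 2 in that order. Inclusion was lower in cKO in 60.5, 64.1 and 83.3% of the members of the 3 classes. Values did not overlap in 6.53, 6.9 and 22.2%, against 10.8% of all tested events. Differences of at least 10 points numbered 14, 2 and 2, and both in the longest class were on the Fam49b exon described above. Median differences were -0.12, -0.14 and -0.38 points. The differences between the classes were not tested. Downstream introns were under 200 bases in 93 tested members, 200 to under 500 in 160 and 500 to under 1000 in 247. Of these, 1, 1 and 2 were called (1.08, 0.625 and 0.81%, against 0.495% of all tested events).

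Many of the long upstream introns run from a first exon or over exons that other transcripts use. The upstream exon was an annotated first exon for 281 of 500 tested members (56.2%), against 37.3% of all tested events. The share was 54.4% where only the downstream intron was long, 48.4% between long introns and 33.7% between short introns. Other annotated exons of the gene lay inside the upstream intron of 337 members (67.4%). The upstream intron itself was annotated for 329 members (65.8%), the downstream intron for 491 (98.2%) and the skipping junction for 136 (27.2%). All 4 calls were among those 136 (2.94%, against 0.495% of all tested events). In that set 64 values were lower and 72 higher in cKO, and 20 (14.7%, against 10.8%) did not overlap. Of the 364 members whose skipping junction was not annotated, 248 were lower and 116 higher, and 16 (4.4%) did not overlap. None of them was called, and 12 had an unadjusted p under 0.05 (3.3%, against 8.78% of all tested events). Control inclusion was 95% or more in 94% of these 364, in 20.6% of the 136 and in 79.8% of all tested events. The part of the inclusion level in this contrast was not tested.

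By place in the transcript, 315 of the 443 tested exons were coding in an annotated transcript (71.1%), 58 were partly coding, 31 lay in the 5′ untranslated region, 2 in the 3′ untranslated region and 37 in noncoding transcripts only. Over all tested exons 80.9% were coding. The 5′ untranslated exons gave 39 tested members, of which the 2 called were the Nadk exon with its 2 ends (5.13%, against 0.495% of all tested events) and 7 did not overlap (17.9%, against 10.8%). Control inclusion was 95% or more in 38.5% of these 39 and in 79.8% of all tested events. The part of the inclusion level in these shares was not tested. Exon length was a multiple of 3 in 155 of 443 exons (35%), against 39.2% of all tested exons and 40.9% of those between short introns. The median length was 110 bases and the median GC content 47.9%. Median GC content was 49.5% where only the downstream intron was long, 48.4% between long introns and 54.1% between short introns. The last base of the exon was G in 76% of the 442 members' exons with sequence and in 79.2% of all. These are descriptions of the annotation and were not tested.

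The 5 tested members with the most reads were the Lck exons of 110 and 82 bases, Jpt1, Capzb and Psap. Lck, the kinase that starts T cell receptor signalling, had mean reads of 15742 in Control and 16932 in cKO at its 110-base exon, with inclusion of 99.997% and 100%. For Capzb, which encodes the β subunit of the actin capping protein, a 144-base exon that is almost never used stood at 0.018% in Control and 0.033% in cKO. In Jpt1 and Psap the differences were 0.013 and -0.07 points. None of the 5 was called (FDR from 0.692 to 0.95), and at this depth differences far under 1 point were within the spread of the values.

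Members in genes of T cell receptor and cytokine signalling numbered 19 tested in 14 genes, of which none was called or had an unadjusted p under 0.05. Their differences ran from -0.90 to 5.09 points with a median of -0.05. Jak1, a cytokine receptor kinase, had a 46-base exon of a noncoding transcript at 6.78, 13.1 and 12.2% in Control and 14.6, 16.3 and 16.4% in cKO (FDR = 0.692), without overlap. Ptpn22, a phosphatase that limits Lck and Zap70, stood at 99.6% ± 0.22 against 98.98% ± 0.38 in cKO (SD, n = 3, FDR = 0.646), also without overlap. Exon 2 of Vav1, an exchange factor for Rac, and exon 3 of Cd84, a receptor of the SLAM family, were at 100% in every Control value and at 99.7% or more in cKO.

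Spliceosome and RNA-binding regulators held 12 tested members in 8 genes, none called and 1 with an unadjusted p under 0.05, the Ythdf3 exon above. Tra2b, a splicing regulator, had exon 2 at 100% in all Control values and at 100, 100 and 99.7% in cKO. Eftud2, the GTPase of the U5 snRNP, had exon 8 at 100, 98.98 and 100% in Control and at 100% in every cKO value. The medians of the list and of all tested events were -0.19 and -0.18 points.

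In the list of the p53 pathway, apoptosis, cell cycle and DNA repair, 2 members were tested. Ercc4, an endonuclease of nucleotide excision repair, was at 98.9% and 100% in Control and cKO, and Ddb2, which recognises UV damage, at 96.5% and 98.9%. Neither was called (FDR = 0.692 for both), and their values overlapped.

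Chromatin and transcription genes held 12 tested members in 8 genes with none called and none at an unadjusted p under 0.05. A 106-base exon of Smarca2, an ATPase of the SWI/SNF complex, was at 94.7% ± 1.85 against 98.04% ± 1.97 in cKO (SD, n = 3) behind an upstream intron of 11006 bases, and at 100% and 98.3% behind one of 10706 bases. Smc1a, a cohesin subunit, was at 99.5% and 100%, and Zfx, a zinc finger transcription factor, at 88.9% ± 4.16 and 84.4% ± 5.27. The values of each overlapped between conditions, and the median over the list was -0.17 points.

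Ubiquitin, vesicle traffic and small GTPase genes held 18 tested members in 15 genes, none called and none at an unadjusted p under 0.05, with differences from -2.91 to 3.11 points and a median of 0.06. Vps13b, a lipid transfer protein of the Golgi, was at 100% in every Control value and at 98.9, 99.5 and 98.7% in cKO (FDR = 0.692). Rab7, the GTPase of late endosomes, had a 5′ untranslated exon at 100% in every Control value and at 100, 96.4 and 94.9% in cKO (FDR = 0.692). Usp45, a deubiquitinase, was at 97.3% and 100%, and Eps15l1, an endocytic adaptor, at 99.4% and 100%. Arih2, a ubiquitin ligase among the genes the study names for exon skipping, had a 64-base member exon, exon 5 of 16 of Arih2-201. It was at 100% in every Control value and at 100, 100 and 99.4% in cKO (FDR = 0.698). The study discusses an exon 2 of this gene, and the positions of these exons were not compared.

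The genes that hold these exons were also compared in total level, which the rule did not use. Of 383 host genes of tested members, 372 had enough reads to be tested, and 2 of them passed an adjusted p of 0.05 in limma (0.538%), against 107 of 11001 genes (0.973%). At an unadjusted p under 0.05 there were 75 hosts (20.2%) and 16.7% of all genes. Evl, an actin regulator of the Ena/VASP family, fell from 36249, 38340 and 38697 normalized counts in Control to 22077, 22691 and 23918 in cKO (log2 fold change -0.72, standard error 0.08, adjusted p = 0.0152). Its 2 member exons, of 59 and 230 bases, were included at 99.1% or more in all values. Glipr2, a Golgi-associated protein, rose from 8014, 8996 and 6795 to 15119, 15535 and 18480 (log2 fold change 1.05, standard error 0.13, adjusted p = 0.022), while its 109-base member exon was at 99.8 to 100% throughout. In both genes every cKO library lay on one side of every Control library. None of the 3 genes with a called exon passed the test of total level. No host gene passed when any 1 library other than KO_7.8 was left out, and only 26 to 36 of all 11001 genes passed in those fits. Without KO_7.8, 5 of 372 hosts and 130 of 11001 genes passed, so the host counts moved with those of all genes. DESeq2 on the recovered reads called 33 hosts (8.87%) and 8.42% of all genes.

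**Figure D5:**
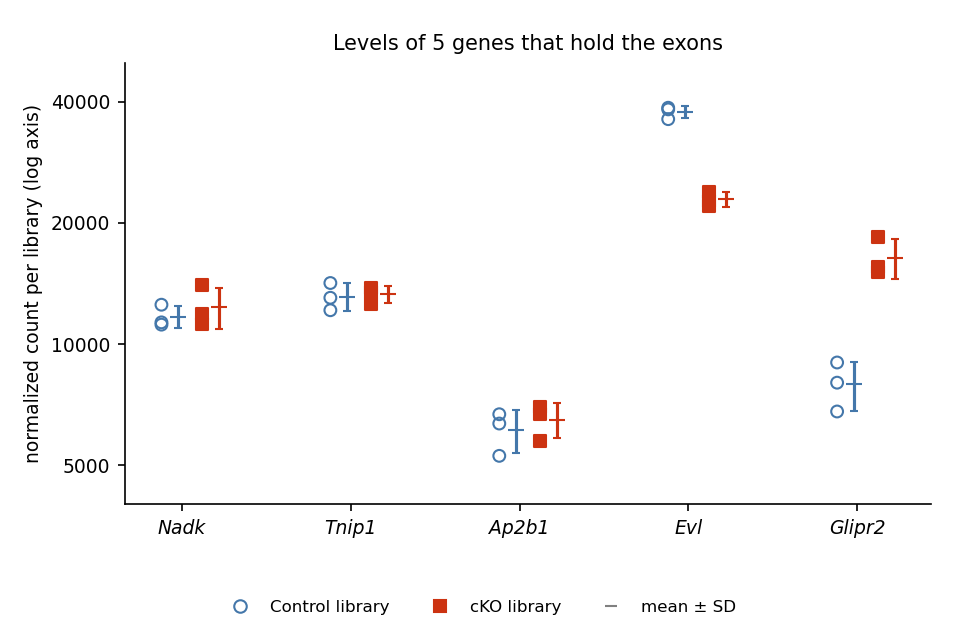
Normalized counts per library on a log axis for the 3 genes with a called member and the 2 host genes that passed the test of level. Open circles are Control libraries, filled squares cKO libraries and bars the mean ± SD. Evl was lower and Glipr2 higher in all 3 cKO libraries, and Nadk, Tnip1 and Ap2b1 overlapped between conditions.

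The short introns behind these exons were seldom listed in the retained intron table. Of 536 distinct downstream introns 11 were listed and 10 tested, and none was called, against 4 of 2206 tested introns (0.181%). The quasi-binomial model gave 1 of the 10 an unadjusted p under 0.05. It was the 676-base intron of Gbp8, retained at 0.24% in Control and 0.06% in cKO (quasi-binomial p = 0.0231, FDR = 0.417). Rabgap1l, a GTPase-activating protein, had an 84-base intron retained at 87.9, 85.5 and 75.3% in Control and 92.0, 88.7 and 88.2% in cKO (FDR = 0.626), without overlap, while its 48-base member exon was at 97.6% ± 2.78 and 94.1% ± 4.79. No upstream intron of a member was listed.

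At the limits of the rule the values were as follows. Just inside the limit on the upstream intron, Marc2 (10025 bases) was at 99.7% in Control and 100% in cKO and Vamp5 (10049 bases) at 100% and 99.7%. Just outside, Rbm25 (9984 bases), an RNA-binding splicing factor, was at 22.2% and 33.5% and met the threshold for a call (11.3 points, FDR = 1.99e-06), and Paip2 (9978 bases) had too few reads in Control to be tested. Just inside the limit on the downstream intron, Stk38 and Aagab (996 bases each) were at 100% in Control and 99.3% and 99.1% in cKO. Just outside, with 1000 bases, Fkbp1a was at 99.97% and 100% and Alg6 had too few reads.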

How the data were processed

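Exon skipping in sorted CD4+ T cells was read from tables made by the authors, who used cutadapt, STAR on GRCm38 and rMATS. Per the file headers, the deposited table gives inclusion and skipping read counts from junctions and exon bodies, with 3 values per condition. The authors' p-values, FDR and inclusion differences, and their DESeq2 log2 fold changes, were not used. Inclusion was recomputed with the lengths in the table. Events with a mean of 20 reads in both conditions were fitted by a quasi-binomial logistic model in R 4.3.3. Dispersions were moderated with limma 3.58.1 towards a prior taken from events with a mean of 5 reads or more for the rarer form, with a floor of 1. P-values were adjusted by Benjamini-Hochberg over all tested events. The deposited expression signal is reads per gene divided by a size factor by the authors. 100% of values came out as whole reads (within 0.01 reads). Genes that carry a symbol and average 100 or more in Control or cKO were tested with limma on log2(value + 1), which understates changes of low genes, and, as alternatives, with edgeR 4.0.16 and DESeq2 1.42.0 on the recovered reads. Both tests were run on simulated data drawn with the form of spread that the models assume, so these runs do not check that assumption. Exon position and sequence came from GENCODE M21. Splice site windows were not computed, since no genome sequence was used here.

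The members, gene lists and tests were chosen with earlier results of these data known. Events named are the called members, the 8 largest differences without overlap, the 5 members with the most reads, members in genes the study names, up to 4 of smallest p per gene list, and the neighbours of each limit. Host genes named are those of called members and up to 5 changed ones. Per event, the dispersion had 4 residual degrees of freedom of its own against 66 of the prior (prior dispersion 2.4, from 7838 events), so splicing p-values rest mostly on the spread pooled over other events. Expression p-values measure the spread between libraries. With 3 against 3 values, an exact permutation test cannot go below 0.1. No column of sample values was left out of the tables used. Retained introns were fitted by the same model, and event types other than these and skipped exons were not used.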

Additional observations from a re-analysis of the deposited data

How the results depend on the processing

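No paired analysis was possible because the labels give Control and cKO no shared replicate numbers, and the splicing values carry no library names. The number of called members was 4 with minima of 10 and 50 reads, without length normalisation, at an FDR of 0.05, at 5 points and with a prior that follows the number of reads (chosen after the data were seen). It was 3 with 1 event per exon, since the Tnip1 pair with the most reads was not called. It was 5, with 2 lower in cKO, under a prior over all tested events, 0 at 20 points, 0 for limma on logit inclusion, 0 for upstream introns of 20000 bases or more and 7, with 2 lower and 5 higher, for 5000 bases or more. Leaving out 1 value gave 1 to 4 calls, 0 to 1 lower and 1 to 3 higher. The lowest count came without the first cKO value (1 call, the longer Nadk form), and 2 remained without the first Control value. Over all tested events the prior over all events called 371.

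The median difference stayed between -0.13 and 0 points, and was 0 without the cKO value listed last. Signs changed for 6 values within the spread when 1 value or library was left out. The difference then ranged from -0.0062 to 0.0195 points for the Lck 82-base exon, from -0.047 to 0.048 for Jpt1 and from -1.97 to 1.03 for the Tnip1 pair at 14965 bases. The log2 change in level ranged from -0.016 to 0.15 for Nadk, from -0.034 to 0.078 for Tnip1 and from -0.013 to 0.17 for Ap2b1. The host genes changed numbered 33 by DESeq2 (8.87%, against 8.42% of all genes) and 3 by edgeR (0.806%, against 1.02%). With 1 library left out, 0 to 5 host genes and 26 to 130 of all genes passed, both highest without KO_7.8. No downstream intron was called under any setting tried. The cause of these differences was not tested. Members with few skipping reads limit what could be called.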
